A study of Mus musculus with 24 samples.

Results

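The serum and glucocorticoid-regulated kinases are a family of 3 genes in the mouse, Sgk1, Sgk2 and Sgk3, and their transcripts were followed over the day in the ventral tegmental area (VTA), the midbrain region whose dopamine neurons project to the striatum and cortex. Each gene was taken from its array row that carries that symbol alone, and each had exactly 1 such row: probe set 10362073 for Sgk1, 10478326 for Sgk2 and 10344750 for Sgk3, so that 3 of the 19938 genes read by a row of their own are described here. The genes lie on chromosomes 10, 2 and 1. The tissue came from male C57BL/6N mice aged 10 to 12 weeks, housed under 12 h of light and 12 h of dark with chow freely available. The labels call every mouse wild type (WT) and name no transgene and no drug. Groups of 4 mice were killed at each of 6 times. ZT0 is lights on, ZT4 and ZT8 fall in the light phase, ZT12 is lights off, and ZT16 and ZT20 fall in the dark phase. Below, ZT12 and ZT16 together are called the early dark, although ZT12 is the switch from light to dark itself. Each mouse gave 1 VTA micropunch and 1 array, 24 in all. Expression was given on the log2 scale, on which a difference of 1 is a doubling.

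The kinases belong to the AGC family, as Akt does. They act downstream of phosphoinositide 3-kinase, and their activity needs phosphorylation by mTOR complex 2 and by PDK1. SGK1 is unusual among kinases because its amount is set largely by transcription: glucocorticoids, acting through the glucocorticoid receptor, raise its transcript quickly, and the protein is short-lived. In the kidney it phosphorylates the ubiquitin ligase NEDD4L and so keeps sodium channels at the membrane. SGK3 carries a domain that binds lipids of endosomes, which the other two lack. In nocturnal rodents the adrenal hormone corticosterone climbs towards lights off. Hormone levels and kinase activity are not part of these data, and an array reads transcript only.

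RefSeq gives 6 starts for Sgk1, all on the plus strand of chromosome 10. Each was examined in a window of 250 bases before to 50 after the start (GRCm38.p6). The windows of the last pair of starts are shown because the window of start 5 alone holds a complete glucocorticoid response element, while that of start 6 is the most GC-rich of the 6 at 69.7% G+C, against 45.0% to 49.7% in the others. Capitals mark the response element, the E-box, the GC-boxes and the TATA box.

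Sgk1 start 5, chr10:21993640-21993939: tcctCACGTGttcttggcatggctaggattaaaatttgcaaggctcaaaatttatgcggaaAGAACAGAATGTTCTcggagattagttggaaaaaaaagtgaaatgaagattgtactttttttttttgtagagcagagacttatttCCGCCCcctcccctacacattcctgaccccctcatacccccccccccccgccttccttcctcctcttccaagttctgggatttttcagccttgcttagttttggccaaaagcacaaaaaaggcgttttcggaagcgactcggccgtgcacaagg
Sgk1 start 6, chr10:21994416-21994715: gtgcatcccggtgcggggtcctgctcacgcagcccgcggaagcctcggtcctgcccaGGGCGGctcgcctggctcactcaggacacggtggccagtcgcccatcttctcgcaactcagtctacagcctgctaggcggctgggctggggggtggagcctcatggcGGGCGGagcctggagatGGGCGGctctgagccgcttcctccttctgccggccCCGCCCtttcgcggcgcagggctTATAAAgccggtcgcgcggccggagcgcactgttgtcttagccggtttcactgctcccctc

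The complete response element, the repeat AGAACA followed after 3 bases of any kind by its inverted copy TGTTCT, is the perfect palindrome recognised by the glucocorticoid receptor. It stood 189 to 175 bases before start 5, at chr10:21993701-21993715. Of 32851 mouse windows of the same length, 3 held it (0.00913%), those of Sgk1, Acnat2 and Gm35041. All motifs were searched on both strands. A relaxed form, GNACA and TGTNC with 3 bases between them, occurred in 156 windows (0.475%), and in the same Sgk1 window, where it overlaps the perfect one. The single repeat AGAACA is common, at 19.0% of windows, and was found in 3 of the 6 Sgk1 windows. The E-box CACGTG, the sequence bound by CLOCK and BMAL1, was in 7.15% of windows. It lay 246 to 241 bases before start 5, sharing bases with an AGAACA repeat on the minus strand. No Sgk1 window held the D-box TTATGTAA (0.938% of windows), its variant TTACGTAA (0.119%) or the cAMP response element TGACGTCA (1.79%). The TATA box TATAAA (13.6% of windows) was in 2 of the 6 Sgk1 windows, those of starts 4 and 6, and the GC-box GGGCGG (35.7%) in those of starts 5 and 6. The array does not tell which start gave the transcript, since 1 probe set reads Sgk1, and a letter match is not a measured binding site.

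**Figure D1:**
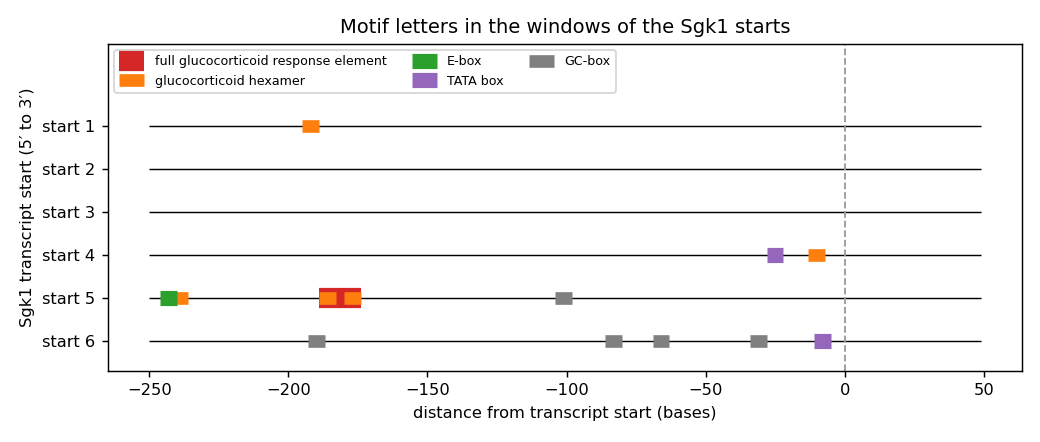
Positions of sequence motifs in the 6 RefSeq windows of Sgk1, in bases from each start, with a window's 250 bases before and 50 after the start drawn to scale; the hexamer is the single repeat AGAACA. The complete glucocorticoid response element is in the window of start 5 alone, and the TATA box in those of starts 4 and 6.

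The dopamine markers Th and Slc6a3, tyrosine hydroxylase and the dopamine transporter, ranged over the 24 arrays between 7.43 and 8.21 (median 7.77) and between 8.01 and 9.18 (median 8.49), above the median probe set mean of 6.76. Array medians were 6.71 to 6.79 and pairs of arrays correlated at 0.962 to 0.995 across probe sets. The fourth mouse at ZT0 stood apart: its median correlation with the other arrays was 0.970. For a 24-h cosine fitted with limma, 7 probe sets (0.0299%) passed an adjusted p of 0.05, and 8.91% passed an unadjusted p of 0.05. For the early dark (ZT12 and ZT16) minus the early light (ZT0 and ZT4), adjusted p fell under 0.05 for 7 probe sets higher in the early dark (0.0299%) and for 1 lower (0.00427%), and unadjusted p for 5.52% higher and 4.67% lower, 10.2% in either direction. These adjusted counts are unstable: they were 7 higher and 0 lower with array medians centred and 17 higher and 3 lower after further quantile normalization, and the total of 8 was 2 to 134 with 1 array left out. Sgk1 was selected on its measured time course in these same arrays, so its values are a description and carry no test. Tests are given for Sgk2, Sgk3 and the gene lists.

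Sgk1 was lowest in the early light phase and highest at lights off. At ZT0 the 4 mice read 6.67, 6.94, 6.81 and 6.78, and at ZT4 they read 6.77, 6.64, 6.61 and 6.93. At ZT8 they read 6.73, 7.02, 7.04 and 7.02. At ZT12 they read 7.65, 7.60, 7.35 and 7.65. Every ZT12 mouse was thus above every mouse of the 3 earlier times. At ZT16 the values were 7.22, 6.98, 7.33 and 7.18, all below the lowest ZT12 mouse, and at ZT20 they were 6.86, 7.40, 7.47 and 7.25. Those last 4 are the most dispersed set of the day, running from a value inside the ZT0 range to above the lowest ZT12 mouse.

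The time point means were 6.80 ± 0.11, 6.74 ± 0.14, 6.95 ± 0.15, 7.56 ± 0.14, 7.18 ± 0.15 and 7.25 ± 0.27 from ZT0 to ZT20 (SD, n = 4 each). Between the highest and the lowest mean, ZT12 against ZT4, lay 0.82 log2 units, 1.77-fold. Ordered by level, ZT4 and ZT0 differed by 0.06, within their pooled SD of 0.13. ZT8 followed 0.15 above ZT0, a little past the pooled SD of 0.13 and with overlapping mice. ZT16 stood 0.22 above ZT8, again with overlap. ZT20 exceeded ZT16 by 0.07, within the pooled SD of 0.22, and ZT12 stood 0.31 above ZT20. Only 2 of the 6 steps between neighbouring times separated all mice: ZT12 minus ZT8, at 0.61, and ZT16 minus ZT12, at -0.38. In the other 4 steps mice overlapped, also in the drop at lights on, ZT0 minus ZT20, of -0.45.

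**Figure D2:**
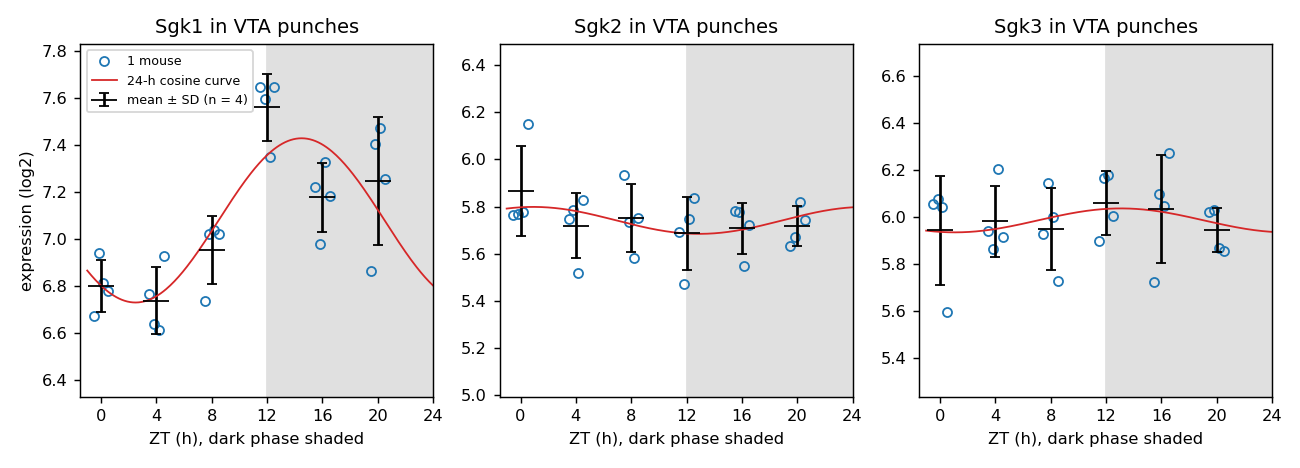
Log2 expression of Sgk1, Sgk2 and Sgk3 in each of 24 mice against ZT in hours, with the mean of 4 mice, its SD and the fitted 24-h cosine, and the dark phase shaded. The ZT12 mice of Sgk1, 7.35 to 7.65, lie above all mice of ZT0, ZT4 and ZT8, while the Sgk2 and Sgk3 mice overlap at all times.

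The time of day accounted for 79.0% of the variance of Sgk1 over the 24 arrays, the second highest share of the 23410 probe sets. The fitted cosine had a peak-to-trough difference of 0.70 (SE 0.11), 1.62-fold, which ranked number 4, with its peak at ZT 14.5 (SE 0.61 h). The curve reached its top later than the highest measured mean, since ZT16 and ZT20 stood above ZT0 to ZT8 and the decline after ZT12 was slower than the climb before it. With a 12-h term added, the fitted peak lay at ZT 12.3. Without the ZT12 mice the cosine still peaked in the dark phase, at ZT 15.7, with a peak-to-trough difference of 0.51, and without the ZT16 mice that difference was 0.98.

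In the 8 early dark mice Sgk1 averaged 7.37 and in the 8 early light mice 6.77, a difference of 0.60 (SE 0.08), 1.52-fold. The early dark mice ran from 6.98 to 7.65 and the early light mice from 6.61 to 6.94, so that 0.04 log2 units separated the sets. Such a separation with the dark mice on top was found in 12 probe sets (0.0513%), and with the dark mice below in 6 (0.0256%).

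At ZT12 and ZT8, on either side of the step to lights off, 1 mouse of each group stood apart. At ZT12 the third mouse read 7.35 while the other three lay between 7.60 and 7.65, and at ZT8 the first mouse read 6.73 while the other three lay between 7.02 and 7.04. Each was about 0.3 below its companions: 0.28 at ZT12 and 0.29 at ZT8. As a low mouse sits in each group, ZT12 minus ZT8 was 0.61 between means, 0.60 between medians, and 0.60 with both low mice left out. It was 0.68 without the low ZT12 mouse and 0.53 without the low ZT8 mouse. Without those 2 mice the peak-to-trough difference was 0.70, as with them.

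The 2 glucocorticoid targets that passed the test described further on had no drop of that size in these mice. These 2 do not stand for their list. Over the 24 mice, deviations from the time point means correlated with those of Sgk1 at -0.26 for Klf9 and -0.40 for Zbtb16. The list ran from that value of Zbtb16, its lowest, to 0.53 for Pdk4, with 0.44 for Per1 and 0.43 for Errfi1. Klf9, a Krüppel-like transcription factor induced by glucocorticoids, read 7.66 in the low ZT12 mouse, the highest of its group, with 7.38 to 7.59 in the other three. In the low ZT8 mouse Klf9 read 7.35, inside the range of the other three (7.29 to 7.40). Zbtb16, a zinc-finger factor induced by glucocorticoids, read 7.59 in the low ZT12 mouse, just under the 7.60 to 7.66 of its companions. In the low ZT8 mouse it read 7.41, inside their range of 7.38 to 7.46. Over 21 glucocorticoid-induced genes, 7 were below all companions and 4 above them in the low ZT12 mouse, where 23.3% and 20.3% of all probe sets were. In the low ZT8 mouse the counts were 6 and 3, beside 19.7% and 19.1% of all probe sets. The oligodendrocyte marker level deviated by -0.01 in the low ZT12 mouse and by -0.05 in the low ZT8 mouse, and the dopamine neuron level by -0.0037 and -0.0031 in the same order, relative to the other mice of the time. The choroid plexus level deviated by -0.04 in the low ZT12 mouse and by -0.21 in the low ZT8 mouse. Other mice went both ways. At ZT0 the second mouse, with Sgk1 0.19 above its companions, had 0.36, and the first, with Sgk1 0.17 below, had -0.24. The first ZT12 mouse, with Sgk1 0.12 above its companions, had -0.20. The second ZT8 mouse, whose Sgk1 was not low, had -0.23. The second ZT16 mouse, with Sgk1 0.26 below its companions, had -0.12, and the first ZT20 mouse, with Sgk1 0.51 below, had -0.01. Whether Sgk1 follows the choroid plexus level over the mice was not tested. The arrays of the low mice had median correlations to the other arrays of 0.991 at ZT12 and 0.993 at ZT8.

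**Figure D3:**
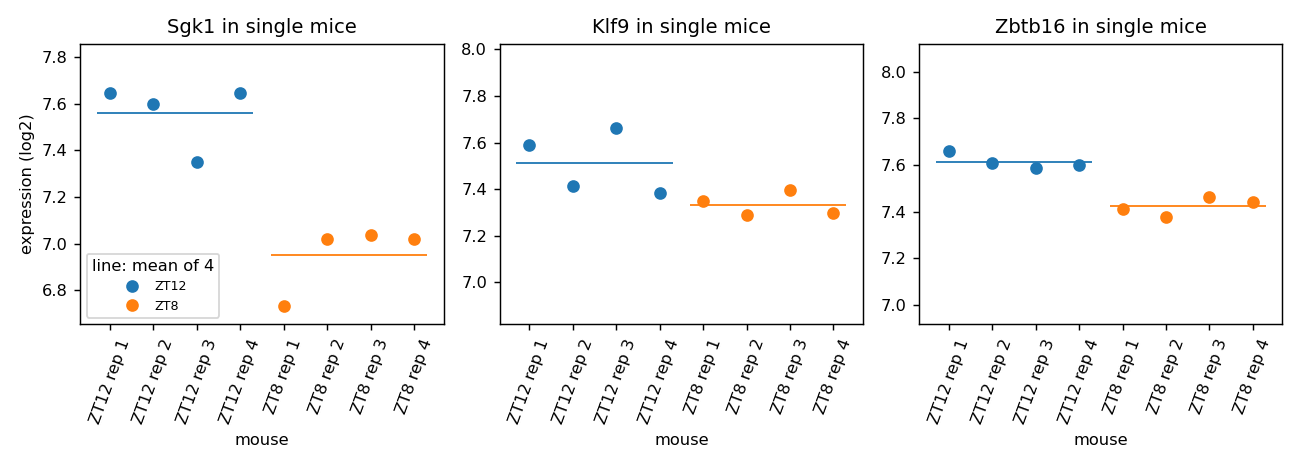
Log2 expression of Sgk1, Klf9 and Zbtb16 in each mouse at ZT12 and at ZT8, with lines at the mean of 4. The third ZT12 mouse is low for Sgk1 (7.35) but the highest for Klf9 (7.66), and the first ZT8 mouse is low for Sgk1 (6.73) with Klf9 (7.35) and Zbtb16 (7.41) inside the range of the others.

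A low mouse occurred at ZT20 as well. Its first mouse read 6.86, 0.51 below the mean of the other three, which lay between 7.25 and 7.47. At ZT16 the second mouse was 0.26 below its companions. In the low ZT20 mouse 9 of the 21 glucocorticoid-induced genes were below all companions and 4 above, beside 24.0% and 27.9% of all probe sets. Without this mouse ZT20 minus ZT16 was 0.20, against 0.07 with it.

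Sgk2, the family member best known from liver and kidney, passed neither test in the VTA. From ZT0 to ZT20 its means were 5.87 ± 0.19, 5.72 ± 0.14, 5.75 ± 0.14, 5.69 ± 0.15, 5.71 ± 0.11 and 5.72 ± 0.08 (SD, n = 4 each), and the mice of all times overlapped. The highest mean, at ZT0, contains the array that stood apart: there the fourth mouse read 6.15 and the other three 5.76 to 5.78. The cosine had a peak-to-trough difference of 0.11, 1.08-fold, with an adjusted p of 0.808 (limma F-test). Sgk2 averaged 5.70 in the early dark and 5.79 in the early light, a difference of -0.10 (SE 0.07, 95% interval -0.24 to 0.05, limma adjusted p = 0.666). Without that mouse the difference was -0.05. The mean level of Sgk2, 5.74, was under the median probe set mean of 6.76, and at low levels an array value moves less than the transcript.

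Sgk3, the endosomal member, passed neither test either. Its means were 5.94 ± 0.23, 5.98 ± 0.15, 5.95 ± 0.17, 6.06 ± 0.14, 6.04 ± 0.23 and 5.94 ± 0.09 from ZT0 to ZT20 (SD, n = 4 each), and no neighbours in the order of levels differed beyond their pooled SD. The fourth ZT0 mouse was here the lowest of all 24, at 5.59, with 6.04 to 6.08 in the others of its group. The peak-to-trough difference was 0.10, 1.07-fold, with an adjusted p of 0.873. Sgk3 averaged 6.05 in the early dark and 5.96 in the early light, a difference of 0.09 (SE 0.08, 95% interval -0.08 to 0.25, limma adjusted p = 0.756). Without the fourth ZT0 mouse the difference was 0.03. These intervals exclude early dark differences as large as the 0.60 of Sgk1 for both genes, on the array's own scale. The correlation with Sgk1 over the 24 mice was -0.26 for Sgk2 and 0.08 for Sgk3, as a description.

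No enzyme that switches the kinases on passed a test. Of 12 measured genes of the activation list, among them Pdpk1 (PDK1), Mtor, Rictor (the subunit that defines mTOR complex 2) and the phosphoinositide 3-kinase subunits, limma called 0 in either test at an adjusted p of 0.05 and also 0 at an unadjusted p of 0.05. Of all probe sets, 8.91% passed the unadjusted threshold by the cosine and 10.2% by the contrast. After adjustment 0.0299% passed by the cosine, and by the contrast 0.0299% were higher and 0.00427% lower. With so few genes, a count of 0 is near these shares. The median early dark difference of the 12 genes was 0.0049, beside 0.0055 over all probe sets. Rictor had the largest value, 0.07, and Pdpk1 stood at 0.01. Among 4 measured related kinases, limma called 0 at either threshold, which is near the same shares. Akt1 and Akt2 had differences of -0.01 and -0.07.

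Of 14 measured substrates and effectors, 2 were higher in the early dark at an unadjusted p of 0.05 (5.52% of all probe sets), 0 were lower (4.67%), and limma called 0 after adjustment. Foxo3, a forkhead factor that the kinases phosphorylate and keep out of the nucleus, averaged 7.29 ± 0.15 in the early dark and 7.07 ± 0.10 in the early light (SD, n = 8 each), a difference of 0.21 (SE 0.06, adjusted p = 0.257). Tsc2, the tuberous sclerosis gene product that restrains mTOR complex 1, had a difference of 0.12 (SE 0.05, adjusted p = 0.397). Nedd4l was at 0.10 (adjusted p = 0.601) and Ndrg1, whose phosphorylation is a standard readout of SGK1 activity, at 0.01. The list's median was 0.02, beside the same 0.0055 over all probe sets. Among 5 measured genes that govern the kinase's stability, Hsp90aa1, a chaperone, had a difference of -0.12 (adjusted p = 0.447), and Tsc22d3, a glucocorticoid-induced leucine zipper protein reported to stabilise SGK1, one of 0.18 (adjusted p = 0.223). Neither passed.

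The glucocorticoid-induced genes had the same sign as Sgk1. All 21 measured members of the list, from which Sgk1 was left out, had a higher mean in the early dark, as did 52.5% of all probe sets. Of the 21, 12 were higher at an unadjusted p of 0.05 (5.52% of all probe sets) and 0 were lower. After adjustment 2 passed: Klf9 rose by 0.32 (7.42 ± 0.15 in the early dark, 7.09 ± 0.12 in the early light, SD, n = 8 each, limma adjusted p = 0.028) and Zbtb16 rose by 0.29 (7.54 ± 0.10 in the early dark, 7.25 ± 0.13 in the early light, adjusted p = 0.027). Both calls rest on narrow margins: with each of the 24 arrays left out in turn the adjusted p reached 0.0998 for Klf9 and 0.0881 for Zbtb16, and neither passed without any one of 8 arrays, the first or the third mouse of ZT0, the second or the fourth of ZT4, the first or the third of ZT12, and the third or the fourth of ZT16. Without the first mouse of ZT4, the second of ZT12 or the fourth of ZT12, Klf9 alone passed. Mt2, a metallothionein, had a difference of 0.30 (adjusted p = 0.058). The list's median difference was 0.15, beside 0.0055 over all probe sets, and its largest 0.32, against the 0.60 of Sgk1. This list was set up with the result for several of its members known, so its direction is not independent evidence. The receptors for the hormone passed no test: the glucocorticoid receptor Nr3c1 differed by 0.00 (limma adjusted p = 0.999) and the mineralocorticoid receptor Nr3c2 by -0.02 (adjusted p = 0.960). Of 4 genes of the receptor list limma called 0 at either threshold. The unadjusted one was passed by 8.91% of all probe sets by the cosine and by 10.2% by the contrast, so 0 of 4 is near these shares. Of 20 listed genes with a promoter window, 0 held the perfect response element and 3 (Fam107a, Map3k6 and Mt1) the relaxed one. Of all single windows 0.00913% and 0.475% held them. A gene can have several windows and the share per gene was not computed, so nothing is read from these counts.

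**Figure D4:**
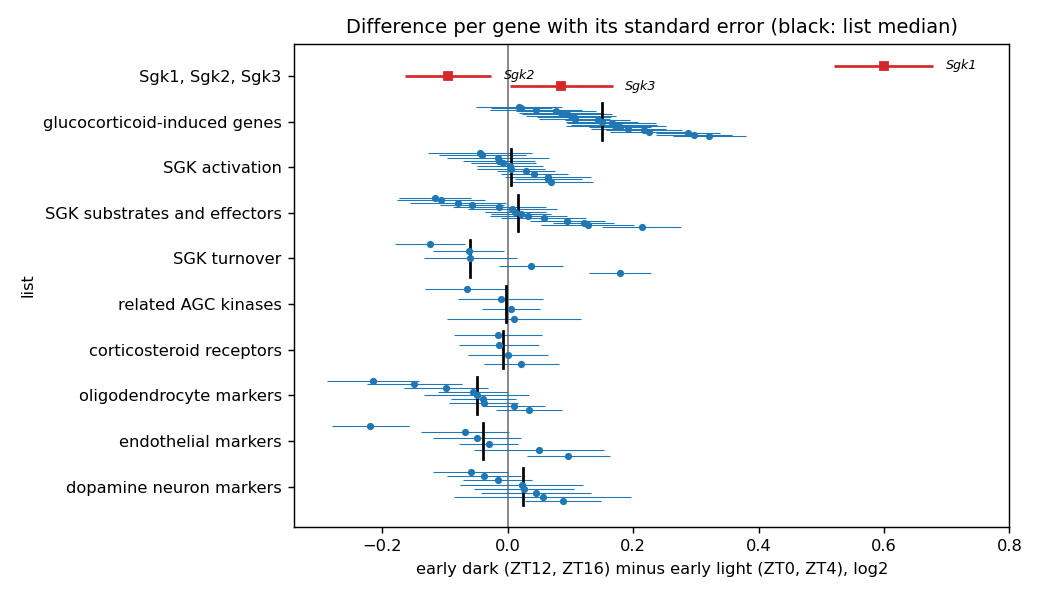
Early dark minus early light difference on the log2 scale for Sgk1, Sgk2 and Sgk3 (squares) and for each gene of the lists named on the axis (points), with standard errors as lines and list medians as black bars. All 21 glucocorticoid-induced genes lie above 0, up to 0.32, and Sgk1 lies at 0.60.

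The VTA micropunch mixes neurons and glia, and Sgk1 is known from several of these cell types, oligodendrocytes among them. In such bulk tissue, a change in the number of cells of a type and a change of RNA per cell cannot be told apart. Of 9 measured oligodendrocyte markers, 2 had a higher mean in the early dark (4 after further quantile normalization), 1 (Ugt8a, at -0.21) was lower at an unadjusted p of 0.05, and limma called 0 after adjustment. Their mean level, each marker taken relative to its own mean over the day, ran from -0.10 to 0.13 in the early dark and from -0.03 to 0.11 in the early light. By the cosine, 4 of the 9 passed an unadjusted p of 0.05 (8.91% of all probe sets). Among them Opalin had a peak-to-trough difference of 0.49 and a peak at ZT 7.55 (limma adjusted p = 0.113). Of the astrocyte, dopamine neuron and other neuron markers, limma called 0 at either threshold in the early dark contrast. The unadjusted one was passed by 10.2% of all probe sets. At an unadjusted p of 0.05, 1 of 6 endothelial markers (Cldn5, at -0.22) and 2 of 7 microglia markers were lower (4.67% of all probe sets), and 1 of 4 choroid plexus markers (Kcnj13, at 0.20) was higher (5.52%). Ttr, the most abundant transcript of the choroid plexus, had a difference of -0.25 (SE 0.22, limma adjusted p = 0.729). The endothelial level ran from -0.07 to 0.02 in the early dark and from -0.10 to 0.07 in the early light. The part of cell composition in the time course of Sgk1 was not tested.

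Polr3e, a subunit of RNA polymerase III, was the gene most like Sgk1. Likeness was measured as Pearson's r over the 24 arrays among 9477 genes with a mean level above the median, and it is a description: the arrays share their time of day, and the genes were picked for r. Polr3e had r = 0.77. It averaged 7.73 ± 0.14, 7.72 ± 0.13, 7.85 ± 0.04, 8.12 ± 0.12, 7.95 ± 0.06 and 7.98 ± 0.17 from ZT0 to ZT20 (SD, n = 4 each), with ZT12 highest, as in Sgk1. Next came Atp10a, a lipid flippase (0.74), Tafa2, a secreted neuronal protein (0.73), Tsc2 (0.71), Etnppl, a phospholyase of astrocytes (0.70), and Adipor2, an adiponectin receptor (0.70). Plekhf1 (0.69), Fam107a (0.69), Slc2a1, the glucose transporter of the blood-brain barrier (0.68), and Mt2 (0.68) completed the first 10. Of these 10, 9 had their highest mean at ZT12 and 9 their lowest at ZT0 or ZT4, their fitted peaks lay between ZT 13.1 and ZT 16.2, and their peak-to-trough folds between 1.10 and 1.46. Fam107a and Mt2 belong to the glucocorticoid list. At the opposite end stood Id2, an inhibitor of helix-loop-helix factors (-0.70), Smpdl3a (-0.69), Tuba4a (-0.69), Klk6 (-0.65) and Rbm28 (-0.64), which peaked between ZT 1.06 and ZT 2.94.

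**Figure D5:**
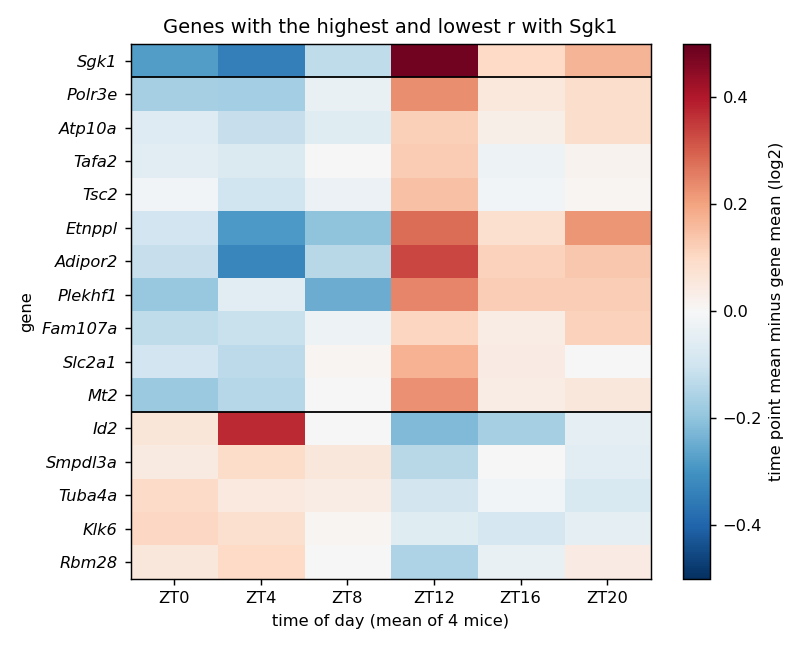
Deviation of each time point mean from the gene's mean over the day, on the log2 scale, for Sgk1, the 10 genes with the highest and the 5 with the lowest correlation with it over 24 arrays. Most of the 10 are highest at ZT12, and most of the 5 are lowest there.

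Much of this likeness lay in the time of day. For Polr3e r was near 1 between the 6 time point means (0.995) but 0.21 between the deviations of single mice from those means, and for Mt2 the values were 0.96 and -0.02. The deviations followed each other most for Tafa2 (0.57) among the 10, and over all genes for Noxo1 (0.67), Peli3 and Pcsk1 (0.65 each), Zdhhc22 and Ganab (0.64 each). In the low ZT12 mouse 5 of the 10 genes were below all companions, and in the low ZT8 mouse 4 were, beside 23.3% and 19.7% of all probe sets. The 10 were picked for their correlation over these same mice, so nothing is read from these counts. Of the 10 genes, 1 had the relaxed glucocorticoid element in a promoter window (Fam107a, in 2 of its 3 windows) and 1 the E-box (Polr3e). Of all single windows 0.475% and 7.15% held them.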

How the data were processed

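VTA tissue was punched from 0.5 mm sections of 24 mice and each RNA was hybridised to 1 Affymetrix Mouse Gene 1.0 ST array. The authors deposited RMA values on the log2 scale for 35556 probe sets, per the labels from R 2.13.1, which are background-corrected and quantile-normalized, so an overall shift between times would be removed. They were used as deposited. Platform annotation gave 1 gene for 21789 probe sets and several for 1621. Probe sets with no gene (12146) were left out. Times follow the labels, 4 h apart; the study's methods text gives another interval. The scale has no counts, so precision rests on 4 mice a time. limma 3.58.1 (R 4.3.3) fitted a 24-h cosine (F-test) and the early dark contrast on 6 groups, with Benjamini-Hochberg adjustment over 23410 probe sets; both fits were tested on simulated data. The study's own CircWave regression was not run. List levels are mean deviations of each gene from its mean over the day. Alternatives covered other curves, scaling, filters, weights, blocking and each array left out; those without the low mice, of the peak time and of the glucocorticoid list were added after the data were seen. The genes and lists were chosen with earlier results of these data known. Named genes are the 3 kinases, the 10 most and 5 least like Sgk1, the 5 with the highest correlation of deviations, and list members past the adjusted threshold or with the 4 smallest rhythm p-values; others are named by their role in the pathway, chosen after their values were seen. Promoter windows came from RefSeq (GRCm38.p6); Sgk2 and Sgk3 are named only. Figures used matplotlib 3.10.9.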

Additional observations from a re-analysis of the deposited data

Results flagged for a closer look

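In 4 of the 18 groups of 4 mice (3 genes at 6 times), 1 mouse lay far from the others, by the ratio of its gap to the group's range, past Dixon's 95% critical value. Chance alone gives about 5% of groups. That rate does not apply to the Sgk1 mice at ZT12 and ZT8, which were singled out when the genes were chosen, so their ratios are a description. Sgk1 read 7.349 in the third ZT12 mouse, with 7.596 to 7.646 in the others (ratio 0.834), and 6.734 in the first ZT8 mouse, with 7.02 to 7.036 in the others (ratio 0.949). Sgk2 read 6.152 in the fourth ZT0 mouse, with 5.764 to 5.776 in the others (ratio 0.968). Sgk3 read 5.594 in that same mouse, with 6.042 to 6.078 in the others (ratio 0.926). That array also stood apart from the rest across probe sets, and its Sgk1 value, 6.78, lay inside the range of its group.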

How the results depend on the processing

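Over 28 alternatives the early dark difference of Sgk1 was 0.57 to 0.63, and over 30 ZT12 minus ZT8 was 0.53 to 0.68. These numbers of alternatives include settings that could not change the value. They are the replicate block and the leaving out of arrays from times that the difference does not use. The peak-to-trough difference of Sgk1 was 0.66 to 0.77 with each array left out, 0.51 without all ZT12 arrays and 0.98 without all ZT16 arrays. Its peak time was ZT 14.1 to 14.8 with each array left out, ZT 12.3 with a 12-h term, ZT 12 by the highest mean, ZT 15.7 without ZT12 and ZT 13.6 without ZT20. No alternative called Sgk2 or Sgk3 (adjusted p of at least 0.640 and 0.731 by the cosine, 0.503 to 0.833 and 0.496 to 0.919 for the early dark contrast); both fall under a filter at the median level. The glucocorticoid list's count of 12 was 10 to 15 over 27 alternatives, and its adjusted count of 2 was 0 to 3 (0 in 8 and 1 in 3 of the 24 fits with an array left out), with all 21 genes above 0 under further quantile normalization and median centring.

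The counts over all probe sets depended most on the processing. The cosine count of 7 was 3 with a 12-h term, 1 with times as a factor, 4 over all probe sets, 17 after further quantile normalization, and 4, 2, 0 and 2 without ZT0, ZT4, ZT8 and ZT12 (1718 unadjusted without ZT8 by limma). With single arrays left out it was 4 to 12, moving most without ZT0 replicate 1 (4), ZT8 replicate 3 (12) and ZT16 replicate 1 (11). The contrast count of 8 was 3 without moderation, 2 over all probe sets, 14 above the median level, 20 after quantile normalization and 45 with array weights. With single arrays left out it was 2 to 134: 134 without the second ZT0 mouse, 13 without the fourth ZT0 mouse and 15 without the third ZT4 mouse. It was 2 without the first or the third mouse of ZT0, the second of ZT4 or the fourth of ZT16, 3 without the third of ZT16, and 4 without the fourth of ZT4 or any single ZT12 mouse. The replicate numbers mark separate mice, since each mouse was killed at 1 time. Of 60 pairs with the same number 14 had correlated deviations over 0.1, with r from -0.30 to 0.58 (median 0.03). Each array was also compared with all arrays of the other times, where 1 mouse in 4 carries its number. Of 24 arrays 6 correlated best with their own number, also 1 in 4. The range of r for pairs with different numbers was not computed, and whether a number marks a batch was not tested. With the replicate number as a block the contrast count was 14 and the cosine count 10. The causes of these shifts were not tested.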
